A study of Homo sapiens with 4 samples.

Results

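The genes described here were the 10 that encode phosphodiesterases of the PDE3, PDE4, PDE7 and PDE8 families, the enzymes that break down cyclic AMP, as measured by microarray in HEK293 cells. They were chosen by family membership (PDE3A, PDE3B, PDE4A, PDE4B, PDE4C, PDE4D, PDE7A, PDE7B, PDE8A and PDE8B), and each was found through the RefSeq accession that its probes carried. All 10 were on the array, among 17217 genes that could be named, and each was represented by 1 target of 3 probes.

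HEK293 cells are human embryonic kidney cells that were transformed with adenovirus DNA, and they are a common host for transfected receptors. The labels give 1 group of 4 biological replicates, all without treatment and under basal conditions, and they call the cell type normal although the line is immortalized. Total RNA of each replicate was copied from an oligo(dT) primer, labelled with Cy3 and hybridized in 1 colour to a NimbleGen array of long oligonucleotides, and the authors deposited a log2 value for each probe. With a single untreated group there was no treatment, genotype or second cell line to compare, so the question for each gene was whether its level lay above a baseline set by genes taken to be silent in these cells.

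Cyclic AMP is made by adenylyl cyclases after Gs-coupled receptors are activated, and phosphodiesterases end the signal by hydrolysing it to AMP. The PDE3 enzymes hydrolyse both cyclic AMP and cyclic GMP, and cyclic GMP slows their action on cyclic AMP. The PDE4, PDE7 and PDE8 enzymes act on cyclic AMP, and those of the PDE4 family are the targets of rolipram and are brought to activated receptors by beta-arrestins. Because HEK293 cells are so often used to read out cyclic AMP from transfected receptors, the enzymes that clear it form part of the background of such assays.

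The values of the 10 genes were read on 3 scales, all in log2 units. A probe value is the deposited log2 value, a level is log2 of the mean linear value of a target's 3 probes, and a distance is the level minus the baseline of the same array. Following the study's methods, the baseline of an array was the mean plus 2 SD of genes expressed in seminal tissue, of which 10 of 11 could be matched. It stood at 9.47, 9.94, 10.69 and 10.32 in replicates 1 to 4, so that the same level lay up to 1.22 further from the baseline on 1 array than on another. The share of all named genes above it was 58.1%, 54.2%, 47.4% and 50.2% in the same order. The controls were not alike: SPATA5 and SPATA13 had mean levels of 9.97 and 9.72, and the others from 6.53 to 7.25. Both were in the study's list and were kept. Without them the mean baseline was 7.78 in place of 10.10, so calls near it depend on these controls. A distance above 0 in the mean of the 4 arrays counted as detected. Levels of different genes depend on the affinity of their probes, so no order of abundance is drawn between genes, and a gene below the baseline was not shown to be absent.

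Marker genes were checked against the line's description. All 6 genes listed for HEK293 cells were detected, 5 of them on all 4 arrays. The exception was NEFM, a neurofilament gene, which was above the baseline on 2 arrays. Its level was 13.57 and 13.09 in replicates 1 and 3 and 8.32 and 8.08 in replicates 2 and 4. Of 10 genes of adult kidney tubule and glomerulus, LRP2 alone was detected, with a distance of 1.27 ± 0.68 (SD, n = 4). The 6 genes of kidney development gave 2 detected, WT1 at 0.81 ± 1.03 and SIX2 at 0.04 ± 0.45, each above the baseline on 3 arrays. None of 4 immune markers was detected, with mean distances from -3.56 to -2.22. Of 4 endothelial markers KDR alone had a mean distance above 0, at 0.30 ± 0.85, and of 5 fibroblast markers COL1A1 alone, at 0.37 ± 1.19, and neither of these was above the baseline on all 4 arrays.

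The promoters of 2 members are printed because they hold the cyclic AMP response element, the palindrome TGACGTCA that the transcription factor CREB binds, and because the genes they belong to, PDE4A and PDE7B, gave the most variable levels among the 10. Sequences are from RefSeq on GRCh38.p14 and read 5′ to 3′ on the plus strand, with the element in capitals. That of PDE4A covers chr19:10416523-10416777 and that of PDE7B covers chr6:135851451-135851700.
PDE4A: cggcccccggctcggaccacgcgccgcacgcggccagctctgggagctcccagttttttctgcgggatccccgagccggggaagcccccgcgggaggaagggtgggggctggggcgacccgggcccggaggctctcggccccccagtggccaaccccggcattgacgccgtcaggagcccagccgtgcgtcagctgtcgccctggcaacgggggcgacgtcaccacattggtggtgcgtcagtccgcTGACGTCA
PDE7B: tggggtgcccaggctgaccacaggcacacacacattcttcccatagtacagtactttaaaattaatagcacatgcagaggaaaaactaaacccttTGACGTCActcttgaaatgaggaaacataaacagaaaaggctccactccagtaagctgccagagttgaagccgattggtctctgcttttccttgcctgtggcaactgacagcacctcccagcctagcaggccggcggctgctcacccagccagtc
The PDE4A sequence runs over 250 bases before an annotated start and the first 5 bases after it, and the element spans the start itself, from 3 bases before it to the fifth base of the transcript. In PDE7B the element lies 155 to 148 bases before the start. The table of promoters held 32 windows for 8 of the members, with none for PDE3B and PDE7A, and each window ran from 250 bases before a start to 50 after. The element, which reads the same on both strands, was found in 2 of the 32 windows (6.25%) and in 649 of 35116 windows of all genes (1.85%). In PDE4A it was in 1 of 5 windows. Windows of 1 gene can overlap, the annotated starts are not known to be those of the RNAs on these arrays, and a match to these letters does not show that the factor binds there. Any link between the element and the spread of the levels of PDE4A and PDE7B was not tested.

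Of the 10 phosphodiesterases, 5 were detected: PDE3B, PDE4D, PDE7A, PDE8A and PDE8B. The other 5, PDE3A, PDE4A, PDE4B, PDE4C and PDE7B, lay below the baseline. Thus each of the 4 families had at least 1 detected gene, and in the PDE3, PDE7 and PDE4 families it was a single gene. The split was the same on every array, with the same 5 genes above the baseline 4 times out of 4 and the same 5 below it 4 times out of 4. This share did not set the enzymes apart from the rest of the array, on which 52.7% of genes were detected, 45.0% were above the baseline on all 4 arrays and 39.8% were below it on all 4. By limma, one-sided against a distance of 0 with Benjamini-Hochberg adjustment over all 17217 genes, the same 5 genes were called, and 45.9% of all genes were. The median distance was -0.44 over the 10 enzymes and 0.26 over all genes.

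**Figure D1:**
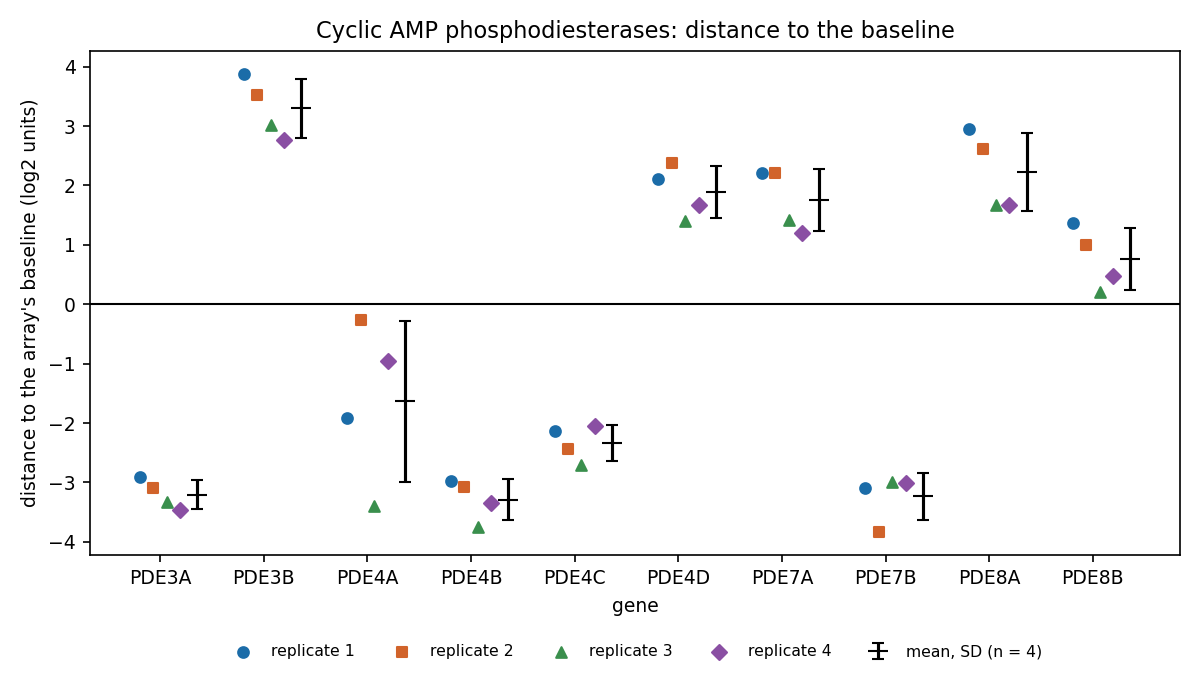
Distance to the array's baseline (log2 units, vertical axis) of the 10 phosphodiesterase genes, with 1 mark per replicate and, beside them, the mean with a whisker of 1 SD (n = 4). PDE3B, PDE4D, PDE7A, PDE8A and PDE8B lie above 0 on all 4 arrays and the other 5 genes below it, with PDE4A the most spread.

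The PDE3 genes lay on opposite sides of the baseline. PDE3B, on chromosome 11, encodes the form known from fat and liver cells, where insulin uses it to lower cyclic AMP. Its level was 13.35, 13.46, 13.70 and 13.09 in replicates 1 to 4. These were distances of 3.88, 3.52, 3.01 and 2.77, with a mean of 3.30 ± 0.50 (SD, n = 4; limma adjusted p = 2.42e-20). Every array was therefore well above its baseline, and the lowest of them by more than 5 times the SD between arrays.

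PDE3A, on chromosome 12, encodes the form known from platelets, heart and smooth muscle, the target of cilostazol. Its level was 6.56, 6.84, 7.36 and 6.85 in the 4 replicates, and its distance averaged -3.20 ± 0.25. None of its 3 probes was above the baseline on any array, and their values ran from 5.76 to 8.11. The 2 PDE3 genes were read by different probes, so each is compared with the baseline and not with the other.

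In the PDE4 family PDE4D was the only detected gene. PDE4D, on chromosome 5, encodes the phosphodiesterase best known for its recruitment to beta-adrenergic receptors by beta-arrestin. Its level was 11.57, 12.31, 12.09 and 11.99, and its distance was 2.10, 2.37, 1.40 and 1.66 in replicates 1 to 4. The mean distance was 1.89 ± 0.43 (SD, n = 4; limma adjusted p = 1.27e-07). The lowest array was thus still 1.40 above its baseline.

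PDE4B, on chromosome 1, encodes the form tied to inflammatory signalling in white blood cells. Its level was 6.49, 6.86, 6.94 and 6.98, with a distance of -3.29 ± 0.34. PDE4C, on chromosome 19, was at 7.33, 7.49, 7.99 and 8.26, with a distance of -2.34 ± 0.30. No probe of either gene was above the baseline on any array.

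PDE4A, also on chromosome 19, encodes a long-studied rolipram-sensitive form found in brain among other tissues, and it was the gene whose arrays disagreed most. Its level was 7.55, 9.67, 7.30 and 9.36 in replicates 1 to 4, and its distance was -1.92, -0.26, -3.39 and -0.96, with a mean of -1.63 ± 1.35. Replicates 2 and 4 were high and replicates 1 and 3 were low, with no overlap, and the means of these pairs were 9.52 and 7.43. The 3 probes showed the same grouping: the first read 7.88, 9.52, 7.04 and 10.20, the second 7.53, 9.64, 6.61 and 8.90, and the third 7.15, 9.84, 7.93 and 8.32. The lowest value of replicates 2 and 4 was thus above the highest of replicates 1 and 3 for each probe.

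No other member had both of replicates 2 and 4 above both of replicates 1 and 3, and none had them both below. Among all genes, 3180 (18.5%) had them both above and 3826 (22.2%) had them both below. Some genes would fall in either order with no difference between these pairs, and that share was not estimated. Over all 17217 genes, 53 (0.308%) had replicates 2 and 4 above replicates 1 and 3 by a gap at least as wide as the 1.81 of PDE4A. The pairs, the direction and the width were taken from PDE4A itself, so this share does not measure how unusual the gene is. NEFM and COL1A1 moved with the same arrays in the opposite direction, COL1A1 being at 11.34 and 11.36 in replicates 1 and 3 and at 9.75 and 9.42 in replicates 2 and 4. WT1 moved in the same direction as PDE4A, at 10.31 and 10.05 in replicates 1 and 3 and at 11.54 and 11.77 in replicates 2 and 4. The labels name nothing that these pairs of replicates share, and the part of such array differences in the spread of PDE4A was not tested. On replicates 2 and 4 alone the mean distance of PDE4A was -0.61 and on replicates 1 and 3 alone -2.65, below the baseline in both.

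**Figure D2:**
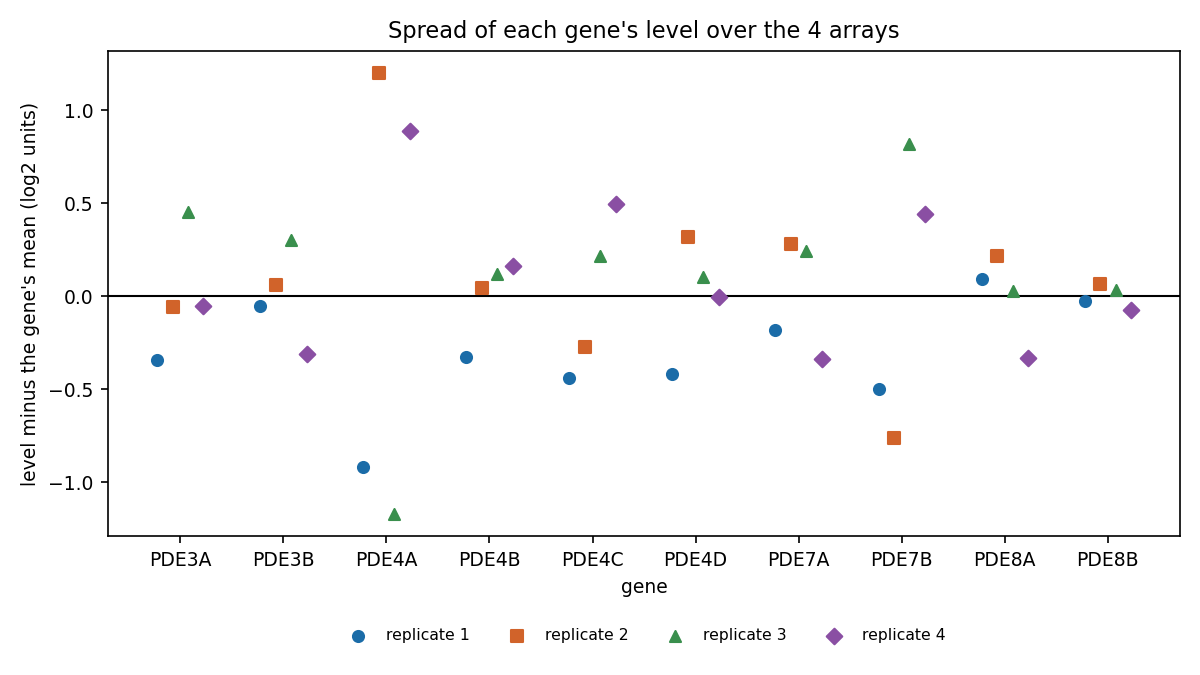
Level on each array minus the gene's mean level over the 4 arrays (log2 units, vertical axis) for the 10 phosphodiesterase genes, with 1 mark per replicate. PDE4A has replicates 2 and 4 above 0 and replicates 1 and 3 below, with a larger SD than 98.1% of all genes. The marks of PDE8B lie within 0.14 of each other, although its single probes vary more.

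The PDE7 genes, whose products resist rolipram, again divided into 1 above and 1 below. PDE7A, on chromosome 8, is known from T cells and was at 11.68, 12.14, 12.10 and 11.52 in the 4 replicates. Its distance was 2.21, 2.20, 1.41 and 1.20, with a mean of 1.75 ± 0.53 (SD, n = 4; limma adjusted p = 8.93e-07). All arrays were more than 1 log2 unit above the baseline.

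PDE7B, on chromosome 6, is known from brain and was at 6.37, 6.11, 7.69 and 7.31. Its distance was -3.10, -3.83, -3.00 and -3.01, with a mean of -3.23 ± 0.40. Its level had a larger SD, at 0.75, than 86.4% of all genes, and replicates 3 and 4, which also had the higher baselines, were its higher arrays. A different single probe stood out on each, the first at 8.69 in replicate 3 and the second at 8.12 in replicate 4. Both values were below the baseline.

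Both PDE8 genes were detected, which was so in no other of the 4 families. The PDE8 enzymes have a high affinity for cyclic AMP and resist IBMX, the inhibitor that most cyclic AMP assays add to block phosphodiesterases. PDE8A, on chromosome 15, was at 12.42, 12.55, 12.36 and 12.00, with distances of 2.95, 2.61, 1.67 and 1.68. The mean distance was 2.23 ± 0.65 (SD, n = 4; limma adjusted p = 4.23e-10). PDE8A was also the only one of the 10 with all 3 probes above the baseline on all 4 arrays.

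PDE8B, on chromosome 5, is known from the adrenal cortex and thyroid and was the detected gene nearest to the baseline. Its level was 10.84, 10.93, 10.90 and 10.79, an SD of 0.06 that was smaller than that of nearly every gene on the array. Its distance was 1.37, 0.99, 0.21 and 0.47, with a mean of 0.76 ± 0.52 (SD, n = 4; limma adjusted p = 0.0337). The level hardly moved between arrays, and the spread of the distance was that of the baseline itself. The single probes moved more, with SDs of 0.46, 0.43 and 0.50, and partly in opposite directions. The small SD thus belongs to the level alone. With a robust prior that follows intensity limma gave an adjusted p of 0.0613, above the threshold of 0.05, so that the gene was not called. When the 4 arrays were scaled together and 1 common baseline was used, the distance was 0.74 ± 0.08 and limma gave an adjusted p of 0.00178. That SD and that p come from the level, which averages the probes, and not from the single probes.

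In the limma fit of the distances to each array's own baseline the variance of every gene was moved to 1 shared value, which gave all genes a standard error of 0.35, so its adjusted p-values rank the genes by mean distance alone. In the fit with a robust prior the standard error followed intensity (0.39 for PDE4A and 0.40 for PDE8B), and with a common baseline it followed each gene's own spread (0.44 for PDE4A and 0.15 for PDE8B). The smallest p that an exact one-sided sign-flip test on 4 arrays can give is 0.0625, and no single gene could pass 0.05 by it. Every limma fit took the baseline as known. The spread among the control genes, an SD of 1.19 to 1.43 on an array, therefore entered no p-value. A small adjusted p does not cover the choice of baseline.

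The probes of a gene sometimes disagreed. In 4 of the 5 detected enzymes at least 1 probe was below the baseline on 1 array or more. For PDE3B, 2 probes read 13.30 to 14.52 on all arrays and the third read 10.04, 10.44, 9.85 and 9.38, above the baseline on 2 arrays. For PDE7A, 2 probes read 11.63 to 13.08 and the other read 9.02, 8.78, 6.88 and 9.34, below the baseline on all 4. For PDE4D, 2 probes read 11.65 to 12.92 and the other 9.68 to 10.37, above the baseline on 2 arrays. The gap between the highest and the lowest probe mean was 4.24 for PDE3B, 4.19 for PDE7A and 2.53 for PDE4D, against a median of 1.48 over all 19125 named targets with quartiles of 0.78 and 2.49.

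The probes of PDE8B lay closer together, with a gap of 0.97, but around the baseline: 1 was above it on 4 arrays, 1 on 3 and 1 on 2. In the 5 genes that were not detected the gaps ran from 0.29 for PDE7B to 1.88 for PDE4C, and no probe of these genes was above the baseline on any array. Which transcript forms each probe reads was not examined here.

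**Figure D3:**
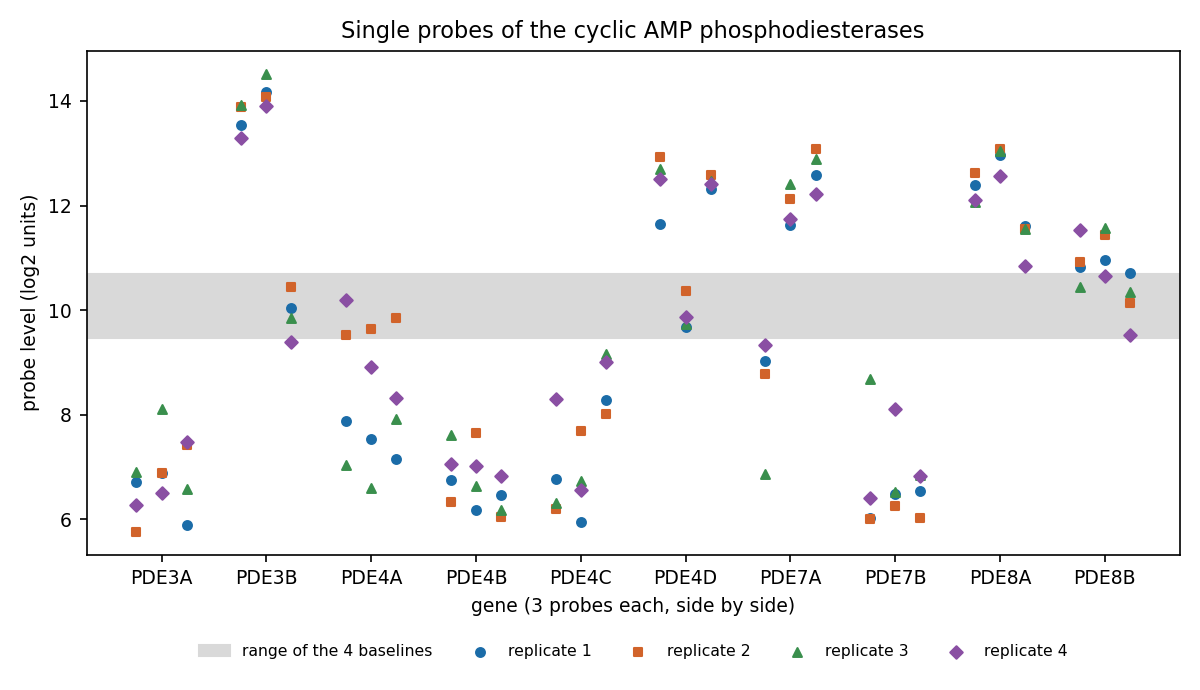
Deposited log2 value (vertical axis) of the 3 probes of each of the 10 phosphodiesterase genes, side by side, with 1 mark per replicate and a grey band for the range of the 4 baselines (9.47 to 10.69). PDE8A has all its probes above the band, PDE3B, PDE4D and PDE7A each have 1 dim probe, and every mark of the 5 genes that were not detected lies below the baseline of its own array, those of PDE4A that reach the band included.

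The height of the baseline decided some calls and not others. PDE3B, PDE4D, PDE7A and PDE8A stayed above it and PDE3A, PDE4B, PDE4C and PDE7B below it under each of the 19 alternatives that could move a distance or its test. With 3 SD in place of 2, PDE8B fell to a distance of -0.56, and PDE4D at 0.57 (limma adjusted p = 0.214) and PDE7A at 0.44 (limma adjusted p = 0.375) were no longer called. PDE4A crossed upwards where the baseline was set lower, to 0.073 with the median and scaled median absolute deviation, to 0.45 with 364 olfactory receptor genes as controls, and to 0.69 without the controls SPATA5 and SPATA13, 2 genes of wider expression (limma adjusted p = 0.0255 for the last). PDE4C came closest to 0 without crossing, at -0.01 in the last of these.

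**Figure D4:**
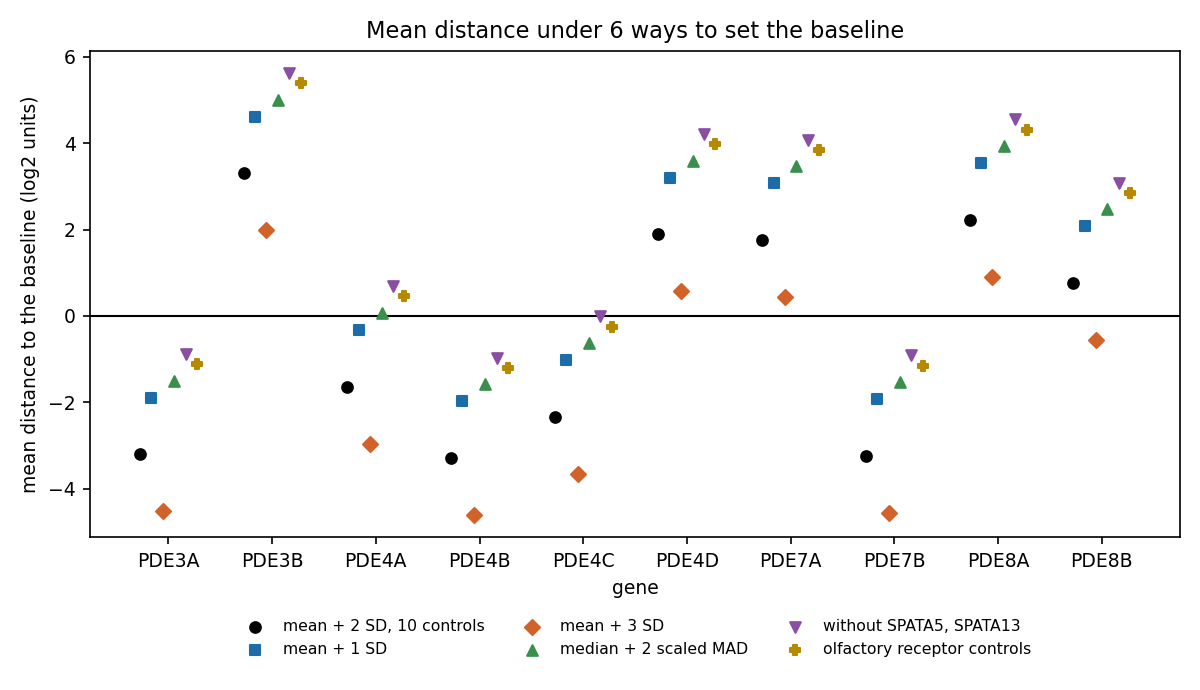
Mean distance to the baseline (log2 units, vertical axis) of each of the 10 phosphodiesterase genes, with 1 mark for each of 6 ways to set the baseline. PDE4A changes sign between settings, from -2.95 to 0.69, as does PDE8B, from -0.56 to 3.09, and the other 8 genes keep theirs.

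Of 14 other phosphodiesterase genes, 3 were detected and 2 of these were above the baseline on all 4 arrays, against 52.7% and 45.0% of all genes. PDE6D, which despite its name is a carrier of prenylated proteins, had distances of 3.48, 3.07, 2.37 and 2.63, with a mean of 2.89 ± 0.49 (SD, n = 4). PDE9A, which hydrolyses cyclic GMP, had 2.33, 2.36, 1.04 and 1.99, with a mean of 1.93 ± 0.62. PDE5A, the cyclic GMP enzyme that sildenafil blocks, had 1.46, 0.97, 0.11 and -0.59, a mean of 0.49 ± 0.91 that limma did not call (adjusted p = 0.173). It fell to 0.16 without replicate 1 and was 0.85 without replicate 4, and limma called it with the median of the probes' log2 values (0.78, adjusted p = 0.0418) and on replicates 1 and 2 alone (1.22, adjusted p = 0.00926). Limma also called PDE5A where the baseline was lower, with 1 SD (1.80), the scaled MAD (2.19), olfactory controls (2.57) or without SPATA5 and SPATA13 (2.81). Its distance was -0.83 with 3 SD and -0.24 on replicates 3 and 4 alone. None of these 3 acts on cyclic AMP as its main substrate.

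The 11 that were not detected included every gene of PDE1, PDE2, PDE10 and PDE11, the families other than PDE3 that hydrolyse both cyclic nucleotides. Among the calmodulin-activated PDE1 genes the distance was -3.02 ± 0.36 for PDE1A, -1.26 ± 0.56 for PDE1B and -1.88 ± 0.49 for PDE1C. PDE2A, which cyclic GMP stimulates, was at -2.76 ± 0.77, PDE10A, a gene of the striatum, at -0.62 ± 0.25, and PDE11A at -1.40 ± 0.64. Of the photoreceptor genes, the catalytic PDE6A was at -3.52 ± 0.44, PDE6B at -2.61 ± 0.47 and PDE6C at -3.03 ± 0.65, and the inhibitory PDE6G at -3.02 ± 0.42 and PDE6H at -2.96 ± 0.40. At the 2 SD baseline the 5 PDE3, PDE4, PDE7 and PDE8 genes detected were therefore the only genes detected, of the 10 and the 14 others, whose products hydrolyse cyclic AMP as a main substrate, and other baselines brought in PDE1B, PDE1C, PDE10A and PDE11A.

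Upstream of these enzymes, 5 of 10 adenylyl cyclases were detected, all 5 on every array, beside 52.7% and 45.0% of all genes. Among them were ADCY6 at 2.29 ± 0.73 (SD, n = 4), ADCY9 at 2.04 ± 0.64 and ADCY7 at 1.66 ± 0.31. Of 7 subunits of protein kinase A, the main cyclic AMP effector, 6 were detected, with PRKAR1A at 4.20 ± 1.01, PRKACA at 3.29 ± 0.50 and PRKACB at 1.91 ± 0.58 among them. Among the 3 genes for its inhibitor peptides, PKIB was at 2.37 ± 1.25, PKIA at 0.63 ± 0.59 and PKIG at -0.83 ± 0.58, and limma called PKIB and not PKIA (adjusted p = 0.0761). The other proteins that bind cyclic AMP, the exchange factors for Rap, the Popeye proteins, the HCN pacemaker channels and the cyclic nucleotide-gated channels, had 2 of 13 genes detected, POPDC1 at 2.20 ± 0.72 and the Rap exchange factor RAPGEF4 at 1.18 ± 0.65.

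A-kinase anchoring proteins hold protein kinase A and phosphodiesterases at the same site, and 11 of 15 were detected, 9 on all arrays. Among them were AKAP8L at 4.28 ± 0.37 (SD, n = 4), AKAP12 at 3.68 ± 0.64 and AKAP8 at 3.23 ± 0.64. In these lists the shares detected are set beside 52.7% of all genes. Those above the baseline on all arrays are set beside 45.0%, and no test of a list was made.

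The list of proteins that bind or modify the phosphodiesterases held 10 genes. A mean distance above 0 was found for 7, beside 52.7% of all genes. Limma called 6 (45.9% of all genes), and the same 6 lay above the baseline on every array (45.0% of all genes). Some partner genes were left out of this list, so its counts do not describe such proteins in general. RACK1, a scaffold for PDE4D, was at 5.68 ± 0.64 (SD, n = 4). The beta-arrestin genes were at 4.79 ± 0.64 for ARRB2 and at 0.68 ± 0.60 for ARRB1, which was above the baseline on 3 arrays (limma adjusted p = 0.0572).

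The Src-family kinases, whose SH3 domains bind PDE4 forms, were at 4.17 ± 0.61 for FYN, 2.75 ± 0.70 for LYN and 1.86 ± 0.67 for SRC. ABHD15, which stabilizes PDE3B in fat cells, was at 1.19 ± 0.58. The remaining 3 partners had a mean distance below 0. DISC1, which binds PDE4B, was at -1.27 ± 0.37 over 3 targets, but at 1.62 when its highest target stood for the gene. SLFN12, which certain small molecules join to PDE3A, was at -1.75 ± 0.50. PDE4DIP (myomegalin), an anchor for PDE4D at the centrosome and Golgi, was at -0.20 ± 0.72 over 4 targets that disagreed.

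Downstream, all 8 genes for CREB and its relatives and coactivators were detected, 7 of them on all arrays, with the coactivator CRTC2 at 3.78 ± 0.50 (SD, n = 4), the acetyltransferase EP300 at 2.95 ± 0.72 and ATF1 at 2.85 ± 0.51 among them. Of 10 genes that CREB is known to induce, 6 were detected and 2 were above the baseline on all arrays. These 2 were the phosphatase gene DUSP1 at 3.06 ± 0.74 and the nuclear receptor gene NR4A2 at 1.34 ± 0.87. Beside the counts of both lists, 52.7% of all genes were detected and 45.0% were above the baseline on all 4 arrays. Cyclic AMP can also leave cells through transporters of the ABCC family, of which ABCC4 was at 2.48 ± 0.71, ABCC5 at -0.12 ± 0.52 and ABCC11 at -3.51 ± 0.38. No level of cyclic AMP and no enzyme activity was measured, so these values describe RNA alone.

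**Figure D5:**
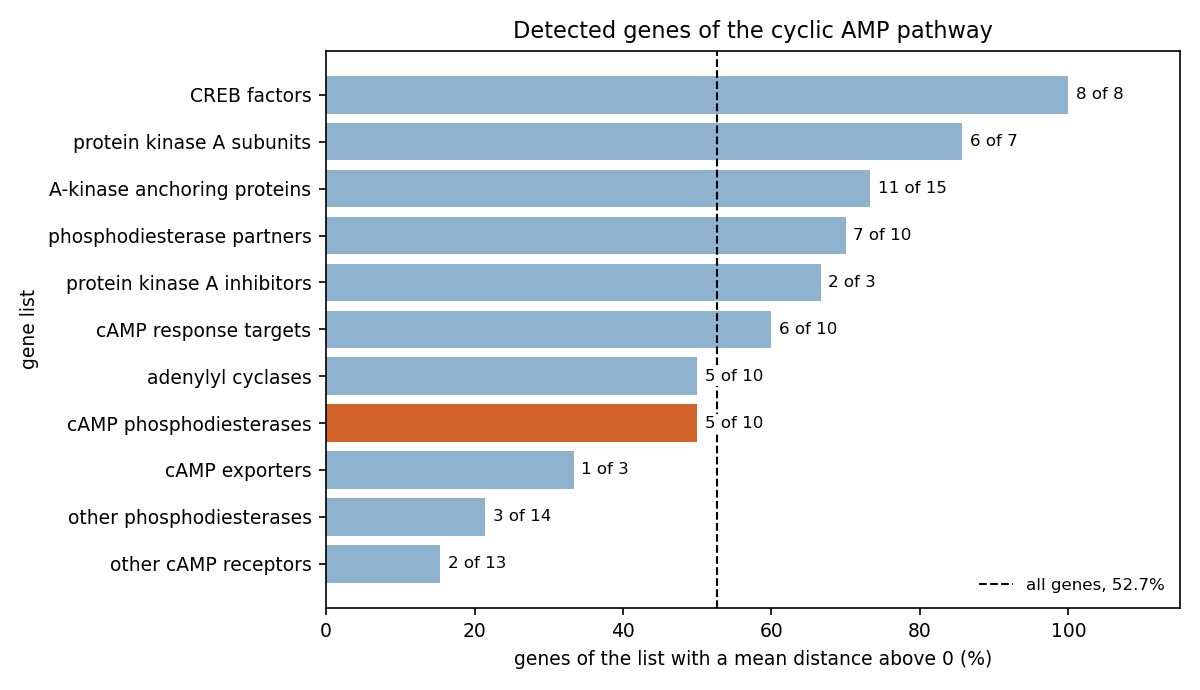
Share of the genes of each cyclic AMP pathway list with a mean distance above 0 (%, horizontal axis), with the count beside each bar, the phosphodiesterases of the PDE3, PDE4, PDE7 and PDE8 families in orange and a dashed line at the 52.7% of all genes. Those phosphodiesterases have 5 of 10 genes above 0, the CREB list 8 of 8 and the other phosphodiesterases 3 of 14.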

How the data were processed

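RNA of 4 HEK293 cultures, each a separate plate and extraction per the study's methods, was measured on 1 array each. The authors deposited log2 values for 71998 probes, made from scanned images with the array maker's software; the submitters' processing notes also name RMA, with no role given. Sorted values nearly coincided within replicates 1 and 2 and within replicates 3 and 4, the form that quantile normalization in pairs leaves. No raw intensity was used, and the number of arrays limits the precision.

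Accessions named 19125 of 24000 targets and 17217 genes through a RefSeq gene table of GRCh38.p14, used for names only. Targets were log2 of the mean linear probe value, and genes the mean of their targets. Each array's baseline, the mean plus 2 SD of 10 matched seminal control genes, was subtracted. Distances were tested one-sided with limma 3.58 in R 4.3, Benjamini-Hochberg adjusted over all genes at 0.05, after the script was tested on simulated data. The members and lists were chosen with earlier results of these data known. Some partner genes are not reported here and were left out of the partners' list and its counts. All members, other phosphodiesterases and listed partners were named, and so were every gene of lists of 5 or fewer, and otherwise up to 3 genes farthest above the baseline on all 4 arrays; the lists' marker genes were named by what they showed. Alternatives changed the baseline, controls, probe summary, normalization, dim-probe filter (898 of 57375 named probes left out), arrays and limma's prior. The array's own coordinates, on another build, were not used here.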

Additional observations from a re-analysis of the deposited data

Results flagged for a closer look

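A single array stood apart from the other 3 in 2 of 67 measures checked (Dixon's ratio of gap to range), and chance alone marks about 1 in 20. For PDE7B the distance to the baseline in replicate 2 was -3.83, against -3.10 to -3.00 in the others, a ratio of 0.882, while the ratio for its level was 0.239. For PDE6B, a photoreceptor gene, the distance in replicate 1 was -1.91 against -2.93 to -2.78, a ratio of 0.854, while the ratio for its level was 0.661.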

How the results depend on the processing

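No paired analysis was possible because the arrays form 1 group. The slide could not be used as a block, since the files name none, and replicates 1 and 2 alone and 3 and 4 alone were analysed instead. Of 190 distances of the members under 19 alternatives, 178 kept their direction and side of the threshold, 4 changed sign and 8 were no longer called. A further 2 alternatives, arrays shifted to 1 median and dim probes left out, could not move these distances and are not counted. The common baseline, the pairs 1 and 3 and 2 and 4, and the separate PDE4DIP targets were added after seeing the data.

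The baseline was 8.79 with 1 SD, 11.42 with 3 SD, 8.40 with the median and scaled MAD, 7.78 without SPATA5 and SPATA13 and 8.02 with olfactory receptor controls, against 10.10 ± 0.52. With 3 SD, 2 members were above it on all arrays and 2 were called, and 3 cyclases, 1 inhibitor, 1 other receptor and 2 response targets were detected. Other phosphodiesterases, other receptors and exporters gave 5, 5 and 2 with 1 SD, 6, 5 and 2 with the MAD, 7, 7 and 2 without SPATA5 and SPATA13, and 7, 6 and 2 with olfactory controls. Exporters gave 2 with the mean of log2 values, with the highest target and with replicates 1 and 2 alone (other receptors then 5), and 1 to 2 when 1 array was left out.

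The distances that changed sign were as follows. With the MAD they were PDE4A 0.073, PDE1B 0.45, PDE10A 1.08, PDE11A 0.31, PKIG 0.87, PDE4DIP 1.51, DISC1 0.43 and ABCC5 1.59. Without SPATA5 and SPATA13 they were PDE4A 0.69, PDE1B 1.07, PDE1C 0.45, PDE10A 1.70, PDE11A 0.93, PKIG 1.49, PDE4DIP 2.13, DISC1 1.05, SLFN12 0.58 and ABCC5 2.21. With olfactory controls they were PDE4A 0.45, PDE1B 0.83, PDE1C 0.21, PDE10A 1.46, PDE11A 0.69, PKIG 1.25, PDE4DIP 1.88, DISC1 0.81, SLFN12 0.33 and ABCC5 1.97. With 1 SD they were PDE1B 0.061, PDE10A 0.69, PKIG 0.49, PDE4DIP 1.12, DISC1 0.045 and ABCC5 1.20. With 3 SD they were PDE8B -0.56, PDE5A -0.83, PKIA -0.68, RAPGEF4 -0.14, ARRB1 -0.64 and ABHD15 -0.13. With the highest target they were PKIG 0.16, PDE4DIP 1.48, DISC1 1.62 and ABCC5 1.12, and with the mean of log2 values ABCC5 0.12. On some arrays alone they were PDE5A -0.24 (3 and 4), PDE4DIP 0.32 and ABCC5 0.28 (1 and 2), PDE4DIP 0.00174 (1 and 3), and, where 1 array was left out, PDE4DIP from -0.53 to 0.000579 and ABCC5 from -0.35 to 0.045, both highest without replicate 3. These follow the height of the baseline by construction where it alone was changed, and otherwise the cause was not tested.

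PDE8B lost its call by limma without replicate 1 (0.56, adjusted p = 0.113), replicate 2 (0.68, adjusted p = 0.131) or replicate 4 (0.86, adjusted p = 0.0613), and on replicates 3 and 4 alone (0.34) or 1 and 3 alone (0.79).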

Other observations

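PDE4DIP, the anchor of PDE4D, was read by 4 targets, and their distances differed. The first 3 averaged -0.77 ± 0.51, -0.62 ± 1.06 and -0.92 ± 0.96 (SD, n = 4), while the other was above the baseline on all 4 arrays, at 2.30, 1.89, 0.22 and 1.67, with a mean of 1.52 ± 0.90. A single probe carried that target, with a mean value of 13.01 and above the baseline on all 4 arrays, while its other probes averaged 8.69 and 9.33 and were above it on none. DISC1 changed from -1.27 to 1.62 when its highest target stood for the gene. Each of the 10 phosphodiesterases had 1 target.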
